A study of Mus musculus with 15 samples.

Results

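Exercise of lean pregnant dams that had been mated to high-fat-fed sires was examined by its trace in the thigh muscle of their adult offspring. The comparison sets the 3 libraries with the group label PHE against the 3 with the group label PHS, 6 of the 15 libraries of the series, over the 13499 of 50686 genes in the table whose normalized count averaged at least 10 across all 15 libraries. The sires were C57BL/6 males kept for 6 weeks on a 60% high-fat diet. The lean C57BL/6 dams were 14 weeks old at mating. In PHE the pregnant dams had a free running wheel. In PHS the wheel was locked. The offspring of both groups ate chow and stayed sedentary from the day after birth, and their quadriceps was taken at 10 months of age. The other 9 libraries come from offspring of high-fat-fed dams with a free wheel (MHE) or a locked wheel (MHS) and of chow-fed parents with a locked wheel (NCS), 3 libraries each. Total RNA was depleted of ribosomal RNA, made into stranded libraries and sequenced with 100-base single-end reads. The sources used here do not name the litters, so 1 group may hold littermates. The p-values then cover the spread among these libraries alone, and a litter effect cannot be told apart from the dam's exercise.

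The mouse quadriceps is built mostly of fast glycolytic fibres, with smaller numbers of slow oxidative fibres that carry their own set of myosin, troponin and calcium pump genes. In adult muscle the mass of a fibre depends on the balance of synthesis and breakdown. FoxO transcription factors and the glucocorticoid receptor switch on a shared set of genes in fasting and disuse, among them the ubiquitin ligases Trim63 (MuRF1) and Fbxo32 (atrogin-1), whose tagged substrates are degraded by the proteasome. PGC-1 coactivators, in contrast, drive the genes of mitochondrial respiration and fatty acid oxidation, and are known to respond to exercise of the muscle itself.

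The 6 libraries held 21343899, 19028361 and 25702946 reads in PHE and 22350676, 26981745 and 23181836 reads in PHS. At least 1 read was seen for 19062 to 20080 genes in PHE and 19194 to 20315 in PHS. The 13 skeletal muscle fibre markers, led by the fast myosin gene Myh4, summed to 236312 to 268201 CPM (counts scaled to a common library total) in PHE and 215753 to 246128 in PHS. Of 25 hepatocyte markers, 24 were measured, and they summed to 25.4, 24.6 and 29.1 CPM in PHE and to 259, 11.8 and 17.9 CPM in PHS. PHS replicate 1 thus stood apart by liver transcripts. So did MHS replicates 2 and 3 (4236 and 506 CPM) and NCS replicate 2 (189 CPM), against 15.7 to 39.2 CPM in the other 6 libraries of these 3 groups. Values are normalized counts, that is, read counts divided by a size factor per library, and differences are PHE minus PHS on the log2(normalized count + 1) scale, on which changes of low genes look smaller than they are.

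No gene passed the test. By limma's moderated test over all 15 libraries, 0 of 13499 genes (0%) reached a Benjamini-Hochberg adjusted p of 0.05, and the lowest adjusted p was 0.991. At an unadjusted p under 0.05 there were 248 genes higher in PHE (1.84%) and 260 lower (1.93%), 508 in all (3.76% of the genes tested), below the 675 that 5% of them would be. On the recovered reads, edgeR's quasi-likelihood test and limma voom also called 0 genes, with 203 and 210 higher and 277 and 265 lower at that unadjusted level. With DESeq2, Arrdc3 was the 1 gene called (adjusted p = 0.0433), and 276 genes were higher and 242 lower at the unadjusted level. All 3 values of PHE lay above all 3 values of PHS for 690 genes (5.11%) and below them for 742 genes (5.5%). The split of genes at an unadjusted p under 0.05 depended on the scaling, with 48.8% of them higher as deposited, 39.1% after TMM scaling and 21.9% after upper-quartile scaling, while the median difference over all genes was 0.01, -0.01 and -0.05.

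**Figure D1:**
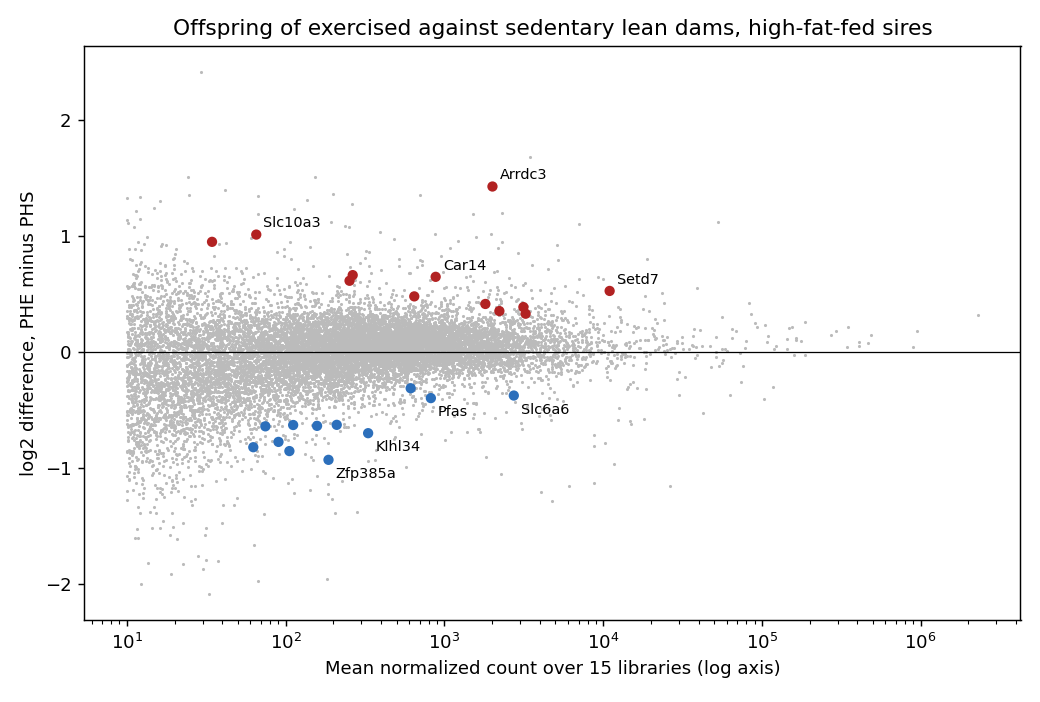
Each grey point is 1 of the 13499 genes tested, with its mean normalized count over the 15 libraries on a log axis and its log2 difference, PHE minus PHS, on the vertical axis. Red and blue points are the 12 named genes higher and the 12 lower in PHE (some with their names). Arrdc3 stands at 1.42, and none of the points passed the test.

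The typical difference was smaller than its error. The median absolute log2 difference was 0.15 and the median standard error 0.21. A difference of at least 1 on the log2 scale was seen for 153 genes, 34 higher and 119 lower in PHE. Single libraries and low counts weigh on such differences. The slow fibre genes described below had a median of -1.05, and of -0.27 without PHE replicate 1. The lowest and highest differences of all, -2.09 and 2.41, were in genes with a mean count of 10 to 50 (median standard error 0.42). How many of the 153 rest on 1 library was not counted. Over all genes, the root mean square log2 distance between 2 libraries was 0.426 to 0.499 within PHE, 0.518 to 0.768 within PHS and 0.417 to 0.658 between a PHE and a PHS library. The mean distance was 0.464 within PHE, 0.628 within PHS and 0.540 between the groups. In a principal component analysis of the 6 libraries, the first component (40.6% of the variance) set PHS replicate 1 (-51.9) against PHS replicate 3 (35.9), with the PHE libraries between them (-2.44 to 11.4), and genes such as Alb, Apob and Fabp1, which are expressed mainly in liver, had its strongest loadings. The differences also depended on abundance. Means were higher in PHE for 35.8% of the 3110 genes with a mean count of 10 to 50 and for 63.2% of the 2497 genes above 1000. Of 650 long non-coding RNAs, 234 had higher means (36.0%, median -0.14), and of 12406 protein-coding genes 6527 did (52.6%, median 0.01). These classes were not matched for abundance, and 36.0% is close to the 35.8% of all genes with a mean count of 10 to 50.

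Arrdc3 had the smallest p of all genes. It encodes an arrestin-domain adaptor that brings ubiquitin ligases to membrane receptors, and it lies on chromosome 13 from 80883384 to 80896042 (GRCm38, GENCODE M21, plus strand). Its normalized counts were 3226, 4146 and 2237 in PHE, against 820, 962 and 1962 in PHS. The lowest PHE library was above the highest PHS library, although PHE replicate 3 and PHS replicate 3 lay close together. The means were 3203 ± 955 in PHE and 1248 ± 622 in PHS (SD, n = 3 each), and the log2 difference was 1.42 ± 0.29 (SE, limma unadjusted p = 0.000164, adjusted p = 0.991). Its difference stayed between 1.18 and 1.80 with any 1 of the 6 libraries left out. The limma adjusted p was 0.0385 without PHS replicate 3 and at least 0.973 without any other 1 of them.

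Besides Arrdc3, 11 genes were named for the smallest p among genes higher in PHE with groups that did not overlap and a mean of at least 50 in either group. These values chose the genes and are given as a description. Slc10a3, a membrane protein of the bile acid transporter family by sequence (chromosome X, 74369217 to 74373349), had 112, 115 and 85.8 normalized counts in PHE, against 55.2, 46.9 and 51.2 in PHS (log2 difference 1.01 ± 0.24). Edrf1, named for its role in erythroid differentiation (chromosome 7, 133637543 to 133672971), had 255, 382 and 333 in PHE, against 222, 204 and 200 in PHS. Golgb1, which encodes the Golgi tether giantin (chromosome 16, 36875140 to 36933085), had 1988, 2640 and 2086 in PHE, against 1639, 1599 and 1776 in PHS. The sets of values lay close together at their edges in Edrf1 and farther apart in Slc10a3.

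Several of the remaining genes higher in PHE act in the secretory path, at the membrane or in the nucleus. Slc8a1, the sodium-calcium exchanger of the plasma membrane, had 437, 378 and 318 counts in PHE, against 218, 233 and 261 in PHS (log2 difference 0.66 ± 0.19). Uggt1, the sensor of glycoprotein folding in the endoplasmic reticulum, had 2781, 2658 and 2516 in PHE, against 2170, 2059 and 2012 in PHS (0.35 ± 0.11). Jak1, the kinase bound to many cytokine receptors, had 3732, 4009 and 3575 in PHE, against 3128, 2708 and 2840 in PHS (0.38 ± 0.12). Snrnp200, a helicase of the spliceosome, Setd7, a lysine methyltransferase, Tnks (tankyrase), Car14, a membrane carbonic anhydrase, and Adamtsl2, a secreted matrix glycoprotein, completed the 12. Setd7, the most abundant of them, had 11994, 16025 and 12215 in PHE, against 8691, 8867 and 10259 in PHS. Over the 12 genes the differences ran between 0.33 and 1.42, with unadjusted limma p-values of 0.000164 to 0.00706.

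By the same rule 12 genes were named among those lower in PHE, with differences between -0.93 and -0.32 and unadjusted limma p-values of 0.00187 to 0.00842. Togaram2, which carries tubulin-binding TOG domains (chromosome 17, 71673261 to 71729669), had 81.7, 66.0 and 70.5 counts in PHE, against 123, 136 and 138 in PHS (log2 difference -0.86 ± 0.23). Zfp385a, a zinc finger protein (chromosome 15, 103313895 to 103340093), had 76.0, 131 and 109 in PHE, against 224, 184 and 185 in PHS (-0.93 ± 0.25). Both genes were clearly apart in the 3 and 3 libraries. Slc6a6, the taurine transporter (chromosome 6, 91684053 to 91759066), had 2221, 2303 and 2635 in PHE, against 3071, 3064 and 3147 in PHS (-0.38 ± 0.11). Sema6a, a transmembrane semaphorin, had 135, 157 and 152 in PHE, against 247, 239 and 204 in PHS (-0.63 ± 0.17). The spread within PHS was small for Slc6a6, at an SD of 46.4 around a mean of 3094.

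Other genes of this set serve signalling and nucleotide supply. Spry4, an inhibitor of receptor tyrosine kinase signalling, had 62.4, 48.3 and 55.2 counts in PHE, against 143, 84.8 and 70.9 in PHS (log2 difference -0.78 ± 0.24). Pfas, an enzyme of purine synthesis, had 642, 622 and 678 in PHE, against 795, 868 and 904 in PHS (-0.40 ± 0.13). Slc29a2, an equilibrative nucleoside transporter, had 95.3, 73.0 and 66.2 in PHE, against 140, 123 and 101 in PHS (-0.63 ± 0.20). The long intergenic RNA 4632428C04Rik, the ubiquitin ligase gene Rnf122, the kelch-like gene Klhl34, the zinc finger gene Zbtb45 and Arhgef2 made up the rest.

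**Figure D2:**
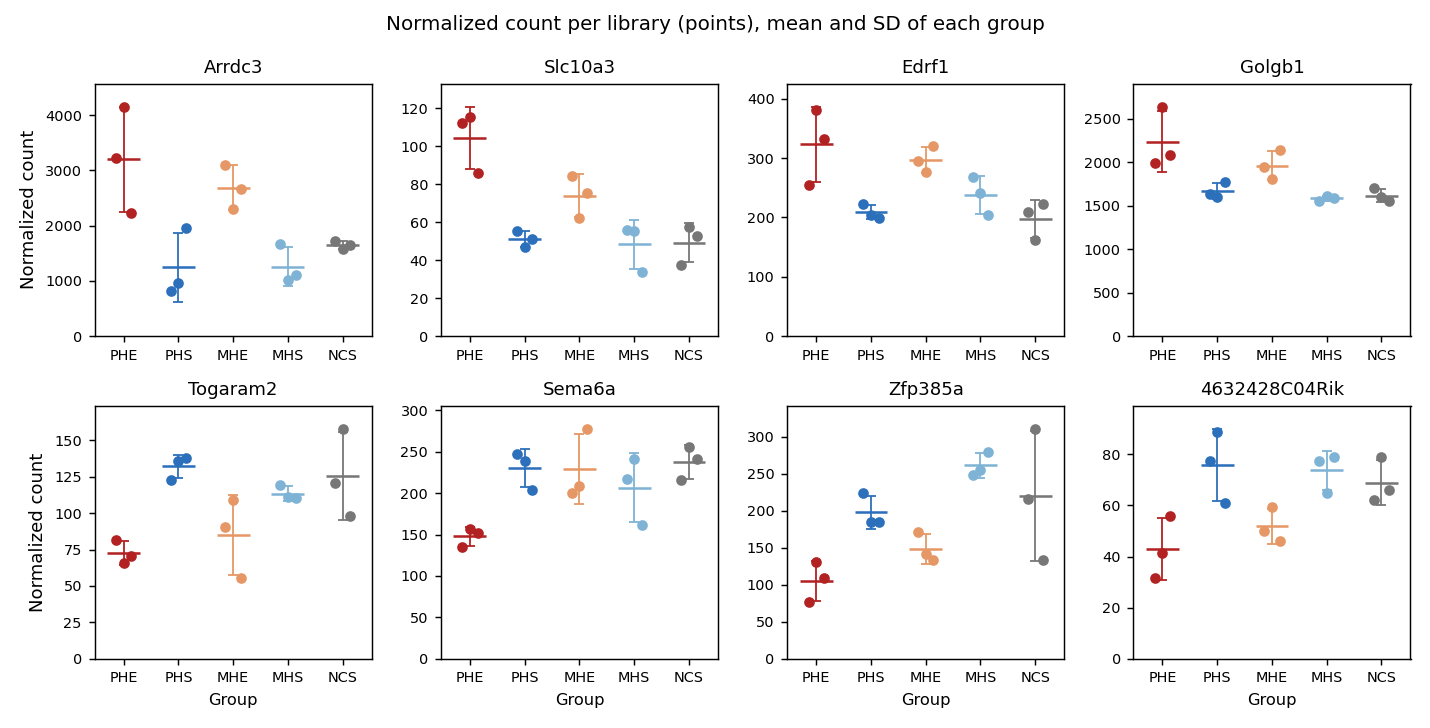
Normalized counts of the 4 genes with the smallest p among those higher in PHE (top) and lower in PHE (bottom), in each of the 5 groups. Points are libraries, horizontal lines are group means and bars are 1 SD (n = 3). In all 8 panels the PHE and PHS points do not overlap, which was a condition for naming the genes, and Arrdc3 shows the widest scatter within PHE, between 2237 and 4146.

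The maternal arm also sets exercised against sedentary dams, but its dams were themselves high-fat-fed. Its differences, MHE minus MHS, did not choose these genes. The MHE and MHS libraries did enter the same fit, and its shared estimate of the spread helped rank the genes by p. All 12 genes higher in PHE than in PHS also had a higher mean in MHE than in MHS, and 11 of the 12 lower genes had a lower one, where 6797 of 13499 genes tested were higher in MHE. Arrdc3 averaged 2689 ± 407 in MHE and 1260 ± 352 in MHS (SD, n = 3 each), a log2 difference of 1.12 ± 0.29. Zfp385a averaged 148 ± 20.1 in MHE and 261 ± 16.5 in MHS (-0.82 ± 0.25). Uggt1 averaged 2517 ± 214 in MHE and 1928 ± 152 in MHS (0.38 ± 0.11). Sema6a ran the other way, with 229 ± 42.0 in MHE and 207 ± 41.4 in MHS, and the difference between the exercise effects of the arms was -0.78 ± 0.24 (limma unadjusted p = 0.00537, adjusted p = 0.9995). For Slc6a6 that difference was -0.38 ± 0.16 (unadjusted p = 0.0293), and for the other 22 genes the unadjusted p exceeded 0.05. Over all genes, limma called 0 differences between the exercise effects of the arms (0%), with 243 at an unadjusted p under 0.05.

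Both sedentary groups hold libraries with liver transcripts, so these values were also taken without PHS replicate 1, MHS replicates 2 and 3 and NCS replicate 2. MHS then keeps 1 library, which is assumed to vary like the others. The counts of named genes with the same direction in the maternal arm were again 12 of 12 and 11 of 12, with 6926 of 13499 genes higher in MHE. For Arrdc3 the log2 difference, MHE minus MHS, was 0.68 ± 0.37. For Sema6a the difference between the arms was -0.64 ± 0.29 (limma unadjusted p = 0.0483). Across the 13499 genes the exercise differences of the arms, which share no library, had a Pearson r of 0.31 over all libraries and 0.18 without the 4, given as a description since genes are not independent replicates.

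**Figure D3:**
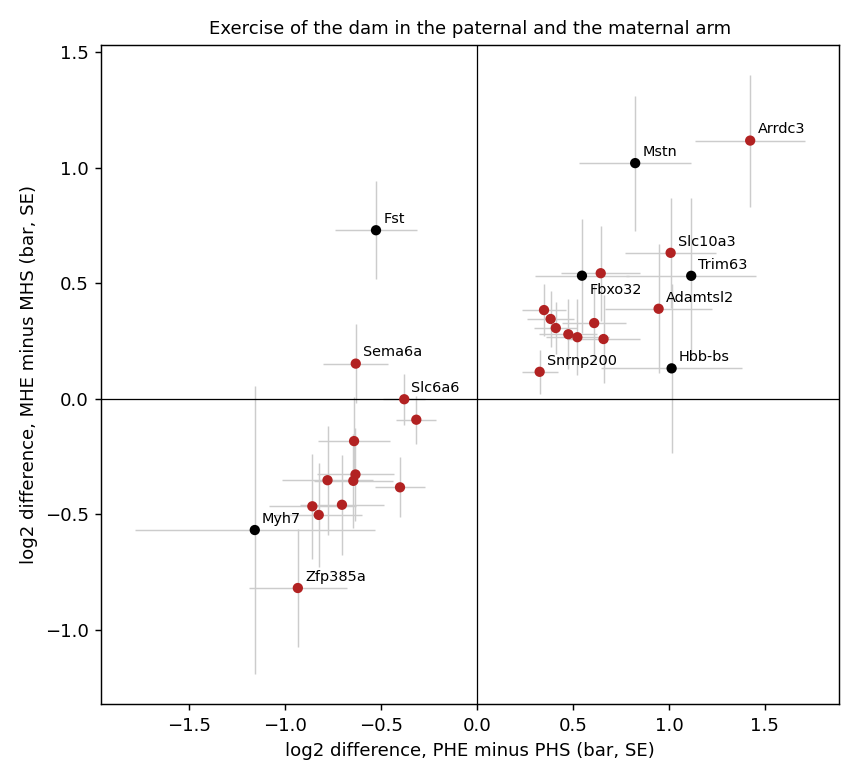
Log2 difference of offspring of exercised and sedentary dams in the paternal arm (PHE minus PHS, horizontal) and in the maternal arm (MHE minus MHS, vertical), with bars of 1 SE, for the 24 named genes (red) and 6 genes of the lists (black). Arrdc3 lies at 1.42 and 1.12, and Fst and Sema6a lie on opposite sides of 0 in the arms.

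Set beside the chow controls, the PHE mean lay farther from the control mean than the PHS mean did. This held in 12 of the 12 higher and 12 of the 12 lower genes. These genes were chosen by the values of PHE and PHS, which favours extreme means of these groups. The share over all genes was not taken, so the counts are a description only. The PHE mean was the highest of the 5 group means in 11 of the 12 higher genes and the lowest in 12 of the 12 lower genes. For Arrdc3 the controls averaged 1650 ± 75.8 (SD, n = 3), below PHE (log2 difference PHE minus NCS 0.91 ± 0.29) and above PHS (PHS minus NCS -0.51 ± 0.29). For Slc10a3 they averaged 49.2 ± 10.4, near PHS (0.07 ± 0.24) and below PHE (1.08 ± 0.24). For Sema6a they averaged 237 ± 20.3, near PHS (-0.05 ± 0.17) and above PHE (-0.68 ± 0.17). These comparisons share the PHE, PHS and NCS libraries with one another.

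Genes of FoxO signalling and muscle atrophy had higher means in PHE. Of 21 measured members 18 were higher, the median log2 difference was 0.55 and 6 had an unadjusted p under 0.05, all higher, where 51.8% of all genes tested were higher with a median of 0.01 and 1.84% were higher at that level. None passed over all genes. Among all genes with a mean above 1000 counts, 63.2% were higher. Trim63 (MuRF1), the ubiquitin ligase of the sarcomere (chromosome 4, 134315120 to 134329629, plus strand), had 56604, 92598 and 70144 counts in PHE, against 28891, 21955 and 56876 in PHS. The groups overlapped by PHS replicate 3, which was just above PHE replicate 1, and the log2 difference was 1.12 ± 0.34 (limma unadjusted p = 0.00477, adjusted p = 0.991). Fbxo32 (atrogin-1), the second classical ligase (chromosome 15, 58175879 to 58214932), had 41583, 52659 and 52093 in PHE, against 34846, 28518 and 36779 in PHS, with no overlap (0.55 ± 0.25). Klhl38, a kelch-like gene (chromosome 15, 58314573 to 58324169), had 2141, 2338 and 2007 in PHE, against 1307, 1133 and 1947 in PHS (0.60 ± 0.21).

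Other members, chosen after their values were seen, include regulators. Foxo3, a FoxO factor itself, had 2109, 3420 and 2353 counts in PHE, against 1540, 1584 and 2314 in PHS (log2 difference 0.53 ± 0.22). Ddit4 (REDD1), an inhibitor of mTORC1 induced by stress and glucocorticoids, had 5377, 7450 and 2775 in PHE, against 687, 832 and 5896 in PHS (1.68 ± 0.69). Cdkn1a (p21), a cell cycle inhibitor, had 2186, 3159 and 3396 in PHE, against 1567, 951 and 2431 in PHS (0.90 ± 0.41). PHS replicate 3 was the highest PHS library in 18 of the 21 genes and lay above the lowest PHE library in 17. The median was 0.68 without PHS replicate 3 and 0.36 without PHE replicate 2, the highest PHE library in 15 of the 21 genes. The number at an unadjusted p under 0.05 was 13 without PHS replicate 3, 11 without PHE replicate 1, 2 without PHE replicate 2 or PHS replicate 1, and 1 without PHS replicate 2. In the maternal arm 17 of the 21 members had a higher mean in MHE (median 0.38, and 0.28 without the libraries with liver transcripts).

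The bases upstream of Trim63 are printed because its ligase is the best known joint target of FoxO factors and the glucocorticoid receptor, and because of all atrophy genes it had the smallest p here. The window holds the 250 bases before the gene's start, chr4:134314870-134315119, plus strand, from RefSeq on GRCm38.p6, and the capitals mark TGTTCT (the reverse complement of AGAACA, a hexamer of the glucocorticoid receptor element) followed without a gap by TGTTTAC (the reverse complement of GTAAACA, a FoxO motif).
Trim63 upstream: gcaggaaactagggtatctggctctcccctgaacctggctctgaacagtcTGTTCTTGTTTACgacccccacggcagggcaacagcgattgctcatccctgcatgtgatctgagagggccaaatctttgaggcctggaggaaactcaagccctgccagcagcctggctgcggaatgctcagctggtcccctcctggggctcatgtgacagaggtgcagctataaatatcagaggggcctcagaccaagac

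Relative to the start of Trim63 the hexamer begins at -200 and the FoxO motif at -194. Searched on both strands, GTAAACA occurred in 3.65% of all 32851 RefSeq promoter windows of 300 bases and AGAACA in 19.0%. Of the 21 atrophy genes 16 had a window, with 19 windows in all. GTAAACA occurred in 2 of these 19 windows (Trim63 and Sesn1) and AGAACA in 1 (Trim63). Of the 18 genes of the glucocorticoid and fasting list 15 had a window, with 24 windows in all. GTAAACA occurred in 2 of these 24 windows (Klf9 and Txnip) and AGAACA in 4 (Sgk1 and Tsc22d3). Neither list stood clearly above the 19.0% of all windows for AGAACA. The complete palindrome, AGAACA and TGTTCT with any 3 bases between them, was found in 3 windows of the whole table (0.00913%), of which Sgk1, a kinase induced by glucocorticoids, held 1. Upstream of Trim63, tgaacagtc directly precedes TGTTCT. That stretch is 1 base off the palindrome (tgaaca for agaaca), and an exact search leaves it out. Neither GTAAACA nor AGAACA was found in the 3 windows of Arrdc3. A match is a match of letters only. The 3 FoxO matches outside the transcribed part are shown for comparison, with the motif in capitals and 15 bases on either side.
Klf9 chr19:23141111-23141147 plus strand: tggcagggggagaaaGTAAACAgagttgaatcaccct
Trim63 chr4:134314911-134314947 plus strand: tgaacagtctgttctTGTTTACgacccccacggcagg
Txnip chr3:96557821-96557857 plus strand: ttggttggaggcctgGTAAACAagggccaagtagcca

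Genes induced by glucocorticoids and fasting leaned the same way. Of 18 measured members 17 had a higher mean in PHE, the median was 0.36, 4 were higher at an unadjusted p under 0.05 and none passed over all genes. Of all genes tested 51.8% were higher and 1.84% were higher at that level, and 63.2% of those with a mean above 1000 counts were higher. Klf9, a transcription factor gene induced directly by the glucocorticoid receptor (chromosome 19, 23141226 to 23168134), had 5983, 7201 and 6342 counts in PHE, against 4512, 4615 and 6285 in PHS (log2 difference 0.35 ± 0.15). Cebpd, a factor that acts with the receptor, had 2597, 4452 and 2452 in PHE, against 646, 912 and 3970 in PHS (1.20 ± 0.53). Glul, the glutamine synthetase gene, had 16841, 30509 and 20497 in PHE, against 11327, 8905 and 19850 in PHS (0.80 ± 0.37). In each of these 3 genes PHS replicate 3 overlapped the PHE range. Pdk4, the kinase that shuts off pyruvate dehydrogenase in fasting, had 78934, 115642 and 102407 in PHE, against 100785, 70891 and 67196 in PHS (0.32 ± 0.22). Txnip, an inhibitor of glucose uptake, had 17578, 24200 and 21057 in PHE, against 18769, 17854 and 20217 in PHS (0.13 ± 0.19). PHS replicate 3 was the highest PHS library in 14 of the 18 genes. No member had an unadjusted p under 0.05 without PHE replicate 2, PHS replicate 1 or PHS replicate 2, and 9 did without PHS replicate 3.

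Downstream of the ligases, the subunits of the proteasome had small differences in one direction. Of 31 subunits 30 had a higher mean in PHE, with a median of 0.12. Higher means were seen for 51.8% of all genes tested and for 63.2% of those with a mean above 1000 counts. There were 2 at an unadjusted p under 0.05, against 1.84% of all genes in that direction, and all 3 PHE values lay above all 3 PHS values for 7, against 5.11% of all genes. Psmc2, an ATPase of the base (chromosome 5, 21785283 to 21803787), had 3453, 3551 and 3298 counts in PHE, against 2858, 2854 and 3038 in PHS (log2 difference 0.24 ± 0.09). Psmd11, a subunit of the lid, had 2988, 3887 and 3349 in PHE, against 2523, 2431 and 3062 in PHS (0.35 ± 0.15). The most abundant subunit gene, Psmd2, had 8118, 7272 and 7131 in PHE, against 6153, 6577 and 7515 in PHS (0.16 ± 0.11). The direction leaned on the scaling and on 1 library: 24 of 31 were higher (median 0.06) after upper-quartile scaling and 20 of 31 without PHS replicate 1, the library with liver transcripts.

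Lists of autophagy, protein folding and redox genes were nearer to level. Of 22 autophagy and mitophagy genes 18 had a higher mean in PHE (median 0.08), with none at an unadjusted p under 0.05. That count was 11 (median 0.018) after upper-quartile scaling, 13 after TMM scaling, 12 with edgeR and 13 without PHS replicate 1. Ctsl, a lysosomal protease, had 3943, 8186 and 6577 counts in PHE, against 3676, 3527 and 5187 in PHS (log2 difference 0.55 ± 0.28), and Ulk1, the kinase that starts autophagy, 6620, 11246 and 8535 in PHE, against 5063, 4807 and 9428 in PHS (0.49 ± 0.27). Among 24 genes of the unfolded protein and integrated stress responses 16 were higher (median 0.10), with 2 at an unadjusted p under 0.05 in each direction, and 12 were (median -0.018) without PHS replicate 3. Of all genes 1.84% were higher and 1.93% lower at that unadjusted level. Xbp1, the transcription factor of the unfolded protein response, had 1600, 1979 and 1567 in PHE, against 1421, 1302 and 1259 in PHS (0.36 ± 0.12), and Dnajb9, a chaperone gene it activates, 474, 747 and 579 in PHE, against 457, 419 and 381 in PHS (0.50 ± 0.22). Ddit3 (CHOP), a factor of prolonged stress, had 134, 191 and 168 in PHE, against 209, 216 and 196 in PHS (-0.34 ± 0.15). Among 24 NRF2, glutathione and thioredoxin genes 13 were higher (median 0.06), close to the 51.8% of all genes, and 12 were after upper-quartile scaling. Srxn1, which reduces peroxiredoxins, had 1186, 2370 and 1749 in PHE, against 822, 717 and 1291 in PHS (0.90 ± 0.38), and Txnrd1, thioredoxin reductase, 2579, 3145 and 2773 in PHE, against 2143, 2085 and 2501 in PHS (0.34 ± 0.15).

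**Figure D4:**
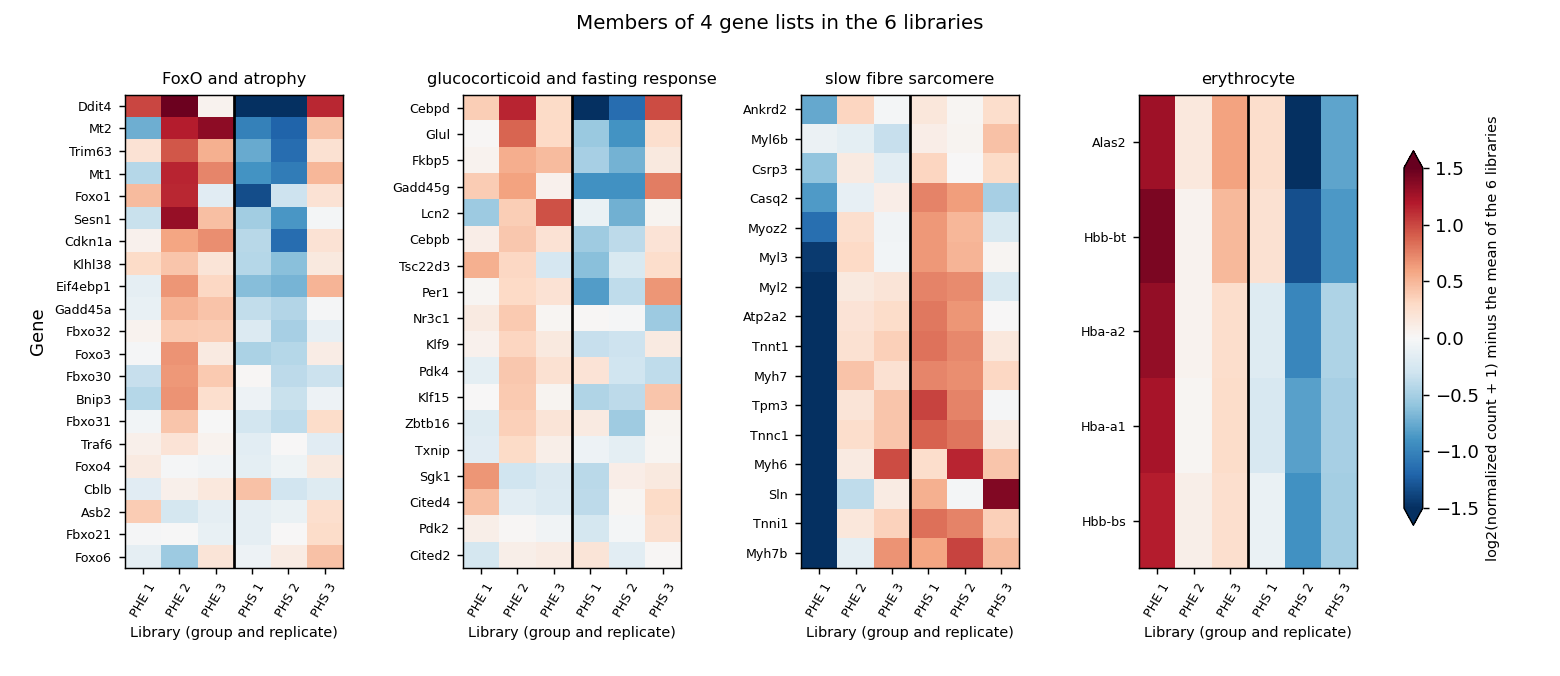
Each cell is the log2(normalized count + 1) of a gene in a library minus the mean of the 6 libraries, in colour, with the 3 PHE libraries left of the black line and the 3 PHS libraries right of it; colours end at -1.5 and 1.5. PHE replicate 1 is the lowest library in 15 of the 16 slow fibre genes and the highest in all 5 erythrocyte genes, and PHS replicate 3 is the highest PHS library in 18 of the 21 atrophy genes.

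Slow fibre genes were lower in PHE, by 1 library above all. All 16 measured members had a lower mean, and the median was -1.05. There were 2 at an unadjusted p under 0.05, against 1.93% of all genes in that direction. Myh7, the slow myosin heavy chain (chromosome 14, 54970684 to 54994626), had 3842, 27089 and 23600 counts in PHE, against 33449, 32614 and 24960 in PHS (log2 difference -1.16 ± 0.62, limma unadjusted p = 0.0837). Only PHE replicate 1 stood far below the rest. Atp2a2, the slow-fibre calcium pump, had 2654, 11676 and 12213 in PHE, against 17465, 15991 and 10202 in PHS (-0.97 ± 0.56). Sln (sarcolipin), a small inhibitor of that pump, had 11.4, 28.3 and 40.8 in PHE, against 54.4, 36.4 and 99.4 in PHS (-1.26 ± 0.51), and Myh7b 30.6, 172 and 305 in PHE, against 288, 387 and 266 in PHS (-1.39 ± 0.65). PHE replicate 1 was the lowest of the 6 libraries in 15 of the 16 genes. Without it the median was -0.27, still with 16 of 16 lower and none at an unadjusted p under 0.05. A chow control was low too. The list summed to 1384 CPM in NCS replicate 1, against 4040 and 6109 CPM in NCS replicates 2 and 3. In PHE replicate 1 it summed to 872 CPM. In bulk muscle, fewer fibres of a type and less RNA per fibre cannot be told apart, and no label gives which part of the quadriceps was taken. The fast sarcomere genes were near level, with 11 of 16 higher (median 0.05). Myh4, the fastest myosin, had 2880306, 2238490 and 2194269 in PHE, against 1546128, 2115407 and 2249289 in PHS (0.31 ± 0.27), and Myh2, the intermediate one, 33161, 76013 and 48699 in PHE, against 74721, 68949 and 51673 in PHS (-0.37 ± 0.27).

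Nuclear genes of the respiratory chain had slightly lower means in PHE. All 36 measured subunits of complex I were lower (median -0.11), none with an unadjusted p under 0.05, and for 8 all PHE values lay below all PHS values, against 5.5% of all genes. Ndufb11, a membrane-arm subunit (chromosome X, 20615326 to 20617619), had 4289, 4200 and 4043 counts in PHE, against 4346, 4839 and 4713 in PHS (log2 difference -0.15 ± 0.09). Of 42 subunits of complexes II to V 40 were lower (median -0.14), 2 had an unadjusted p under 0.05, against 1.93% of all genes in that direction, and 11 did not overlap, against the same 5.5%. Cox7b, a subunit of cytochrome oxidase (chromosome X, 106015700 to 106022450), had 3843, 4259 and 4185 in PHE, against 5396, 5286 and 4297 in PHS (-0.28 ± 0.11). The lean held in direction without any 1 library, with 3, 5, 9 and 6 complex I genes higher without PHE replicate 1 and PHS replicates 1, 2 and 3. Cs, citrate synthase, a common measure of mitochondrial content, had 18807, 20500 and 18900 in PHE, against 19330, 20780 and 18941 in PHS (-0.02 ± 0.10). The 9 measured genes of the mitochondrial genome, in contrast, had higher means (median 0.21), which 1 library decided: mt-Co1 had 171447, 187307 and 204835 in PHE, against 227414, 214203 and 105964 in PHS, and without PHS replicate 3 the median was -0.16 with 1 of 9 higher. For mt-Nd6, on the opposite strand from its neighbours, whether the counting used strand is not stated.

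Genes of fatty acid use leaned lower and those of glucose handling were mixed. Of 33 genes of fatty acid uptake and oxidation 29 had a lower mean in PHE (median -0.18). Of these 2 had an unadjusted p under 0.05, against 1.93% of all genes in that direction. Cpt1b, which admits fatty acids to the mitochondrion (chromosome 15, 89416405 to 89425863), had 183, 287 and 268 counts in PHE, against 307, 320 and 337 in PHS (log2 difference -0.41 ± 0.16). Hadh, an enzyme of beta-oxidation, had 2889, 3674 and 3395 in PHE, against 4007, 4150 and 3742 in PHS (-0.26 ± 0.11). Neither gene overlapped between groups, and without PHE replicate 1 the list's median was -0.08 with none at an unadjusted p under 0.05. Gpam, the first enzyme of triglyceride synthesis, had 4052, 3894 and 3430 in PHE, against 6199, 5471 and 4433 in PHS (-0.49 ± 0.17), while 11 of 22 lipid synthesis genes were lower. Of 24 genes of insulin and AMPK signalling 18 were higher (median 0.10). Gsk3b, the kinase that restrains glycogen synthase (chromosome 16, 38089001 to 38246084), had 2882, 4326 and 3077 in PHE, against 2489, 2070 and 2267 in PHS (0.57 ± 0.19). Slc2a4 (GLUT4), the insulin-regulated glucose transporter, had 13376, 13611 and 12956 in PHE, against 12023, 11204 and 15267 in PHS (0.07 ± 0.16), and Irs1 881, 1055 and 916 in PHE, against 1013, 756 and 804 in PHS (0.16 ± 0.26). Of 28 glycolysis and glycogen genes 18 were higher (median 0.04), with none at an unadjusted p under 0.05. That number was 10 without PHE replicate 1, 11 without PHS replicate 1 and 12 after upper-quartile scaling, each with a median below 0.

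The PGC-1 coactivators themselves had lower means. Ppargc1a, the main one, had 516, 697 and 372 counts in PHE, against 788, 720 and 392 in PHS, with overlapping groups (log2 difference -0.24 ± 0.34). Ppargc1b, its paralog, had 126, 117 and 135 in PHE, against 223, 155 and 157 in PHS (-0.48 ± 0.22), and Perm1, a muscle protein induced by PGC-1, had 3910, 3685 and 3937 in PHE, against 5618, 5617 and 4138 in PHS (-0.40 ± 0.17). Both lay lower in all PHE libraries and had the only unadjusted p-values under 0.05 among the 20 genes of PGC-1 and its partners, of which 11 were lower (median -0.10). Of all genes 1.93% were lower at that level. None of the 20 was at that level without PHE replicate 1, PHE replicate 3 or PHS replicate 1, and the median was 0.0020 without PHS replicate 1, with 10 of 20 lower. Ucp3, a mitochondrial carrier of muscle, had 11824, 8538 and 8127 in PHE, against 9582, 8483 and 10097 in PHS (0.00 ± 0.23). Dnmt3b, a DNA methyltransferase, had 11.4, 18.8 and 28.9 in PHE, against 27.6, 12.9 and 25.6 in PHS (-0.18 ± 0.40), and 5 of 10 genes of DNA methylation were lower.

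Among secreted muscle factors, myostatin and its antagonist leaned in opposite directions. Of 17 measured factors 13 had a lower mean in PHE (median -0.23). Mstn (myostatin), an inhibitor of muscle growth (chromosome 1, 53061640 to 53068079), had 1008, 1600 and 1368 counts in PHE, against 805, 762 and 647 in PHS (log2 difference 0.82 ± 0.29, limma unadjusted p = 0.0128), with no overlap. Fst (follistatin), which binds myostatin (chromosome 13, 114452290 to 114458951), had 38.6, 43.6 and 36.5 in PHE, against 60.6, 65.4 and 47.3 in PHS (-0.53 ± 0.21), also with no overlap. In the maternal arm Mstn had the same sign (1.02 ± 0.29) and Fst the opposite one (0.73 ± 0.21), and the difference between the arms for Fst was -1.25 ± 0.30 (limma unadjusted p = 0.000784, adjusted p = 0.9995). Without the 4 libraries with liver transcripts, the maternal difference was 0.35 ± 0.29 for Mstn and 0.40 ± 0.29 for Fst, and that between the arms for Fst was -0.89 ± 0.37 (limma unadjusted p = 0.0352). Vegfa, the main growth factor for capillaries (chromosome 17, 46016993 to 46032369), had 2300, 2791 and 3259 in PHE, against 4917, 4002 and 3369 in PHS (-0.55 ± 0.21). Igf2, a growth factor expressed from the paternal allele, had 420, 428 and 516 in PHE, against 501, 578 and 807 in PHS (-0.44 ± 0.20).

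Myogenic regulators and genes of the synapse leaned lower. Of 16 measured myogenic regulators and satellite cell genes 11 had a lower mean in PHE (median -0.28), 3 of them at an unadjusted p under 0.05 and 1 at that level higher. Of all genes 1.93% were lower and 1.84% higher at that level. Myod1, a master regulator of muscle differentiation, had 76.0, 37.7 and 79.0 counts in PHE, against 118, 133 and 70.9 in PHS (log2 difference -0.75 ± 0.31). Eya4, a transcriptional coactivator and phosphatase (chromosome 10, 23102963 to 23350786), had 884, 1068 and 890 in PHE, against 773, 749 and 630 in PHS (0.40 ± 0.15), without overlap. Chrna1, a subunit of the acetylcholine receptor on both this list and that of the neuromuscular junction, had 386, 479 and 378 in PHE, against 478, 622 and 612 in PHS (-0.46 ± 0.17). Of 18 junction and denervation genes 13 were lower (median -0.25). Of 21 genes of calcium release and excitability 12 were lower (median -0.01). Ryr1, the calcium release channel of muscle, had 225572, 195197 and 170877 in PHE, against 137778, 155185 and 207874 in PHS (0.25 ± 0.20).

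Erythrocyte transcripts had higher means in PHE than in PHS. All 5 measured members had higher means (median 1.09) and an unadjusted p under 0.05, against 1.84% of all genes, and none passed over all genes. Hbb-bs, an adult beta globin (chromosome 7, 103826534 to 103828096), had 1638, 769 and 865 counts in PHE, against 675, 385 and 508 in PHS (log2 difference 1.01 ± 0.37). Hba-a1, an alpha globin, had 760, 331 and 392 in PHE, against 274, 183 and 228 in PHS (1.03 ± 0.37). Globin genes are near-identical copies, so that their separate values are uncertain. Alas2, the erythroid enzyme of haem synthesis and not a globin, had 126, 57.7 and 79.0 in PHE, against 62.4, 17.8 and 29.5 in PHS (1.35 ± 0.51). The list summed to 136, 65.3 and 78.6 CPM in PHE and 65.5, 33.4 and 42.3 in PHS, and Epb42 was at 0 in all 6 libraries. In the chow controls (NCS) the sums were 53.7, 80.6 and 128 CPM, a range that overlapped both groups. Without PHE replicate 1 the median was 0.70, without PHS replicate 2 it was 0.88, and without either library none of the 5 had an unadjusted p under 0.05. With the title code described below as a covariate the median was 0.60, also with none of the 5 at that level. In the maternal arm the median was 0.03, and 0.99 without the 4 libraries with liver transcripts, MHS replicate 1 then standing alone for its group.

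Of 8 marker lists for other cells of muscle, 6 had a median below 0. Of all genes tested 51.8% had a higher mean in PHE. That share was 35.8% for genes with a mean count of 10 to 50 and 44.5% for 50 to 200. The marker lists were not matched for abundance, so a lean to lower means need not be one of cell types. Of 16 endothelial markers 14 were lower (median -0.07), and they summed to 975 to 1264 CPM in PHE and 1135 to 1236 in PHS. Of 14 pericyte and smooth muscle markers 11 were lower (median -0.24), with sums of 5530 to 6033 CPM in PHE and 5479 to 6781 in PHS. Cspg4 (NG2), a pericyte proteoglycan (chromosome 9, 56865033 to 56899870), had 207, 206 and 241 counts in PHE, against 321, 297 and 277 in PHS (log2 difference -0.45 ± 0.17). Of 12 macrophage markers 11 were lower (median -0.29; 39.9 to 71.7 CPM in PHE and 44.7 to 82.9 in PHS), of 10 fibro-adipogenic markers 9 (median -0.11; 511 to 753 CPM in PHE and 580 to 790 in PHS) and of 11 tendon markers 9 (median -0.23; 136 to 236 CPM in PHE and 133 to 252 in PHS). Of 15 Schwann cell markers 10 were lower (median -0.14; 147 to 198 CPM in PHE and 158 to 236 in PHS). Of 11 adipocyte markers 7 were higher (median 0.06; 3491 to 3992 CPM in PHE and 3766 to 3978 in PHS), and 3 were higher without PHE replicate 1 or PHS replicate 1. Of the neutrophil and mast cell list 2 members were measured, 1 higher and 1 lower (median 0.15). The summed levels overlapped between the groups in all 8 lists. The pericyte sum takes in Des, which is also on the list of skeletal muscle fibre markers. Cfd, Cidec and Plin1 averaged 723, 262 and 91.9 normalized counts over the 15 libraries, so other listed genes made up most of the adipocyte sum. These sums therefore need not follow the number of pericytes or adipocytes. Of 34 matrix genes 27 were lower (median -0.23). Where 1.93% of all genes were lower at an unadjusted p under 0.05, 1 of the 34 was. This was Col8a1, a short-chain collagen, with 69.2, 90.7 and 82.4 in PHE, against 98.0, 116 and 113 in PHS (-0.44 ± 0.19). The part of the other cell types in the matrix result was not tested.

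Among the remaining lists, ribosomal proteins leaned lower and several signalling lists were near level. Of 74 cytoplasmic ribosomal protein genes 70 had a lower mean in PHE (median -0.10), with none at an unadjusted p under 0.05. Rps12 had 2185, 2198 and 2263 counts in PHE, against 2459, 2571 and 2427 in PHS (log2 difference -0.17 ± 0.09). Of 34 interferon and class I presentation genes 16 were higher (median -0.03), and H2-K1, a class I heavy chain, had 2010, 1769 and 1879 in PHE, against 1617, 1916 and 2290 in PHS (-0.03 ± 0.14). Of 19 clock genes 10 were higher (median 0.02), and of 20 immediate early genes 11 (median 0.05). Dusp1, a phosphatase of MAP kinases in the last list, had 930, 548 and 543 in PHE, against 1225, 992 and 1114 in PHS (-0.76 ± 0.28). Of 20 heat shock genes 12 were higher (median 0.06), and Dnajb1, a chaperone, had 120, 90.7 and 108 in PHE, against 138, 143 and 150 in PHS (-0.44 ± 0.19).

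**Figure D5:**
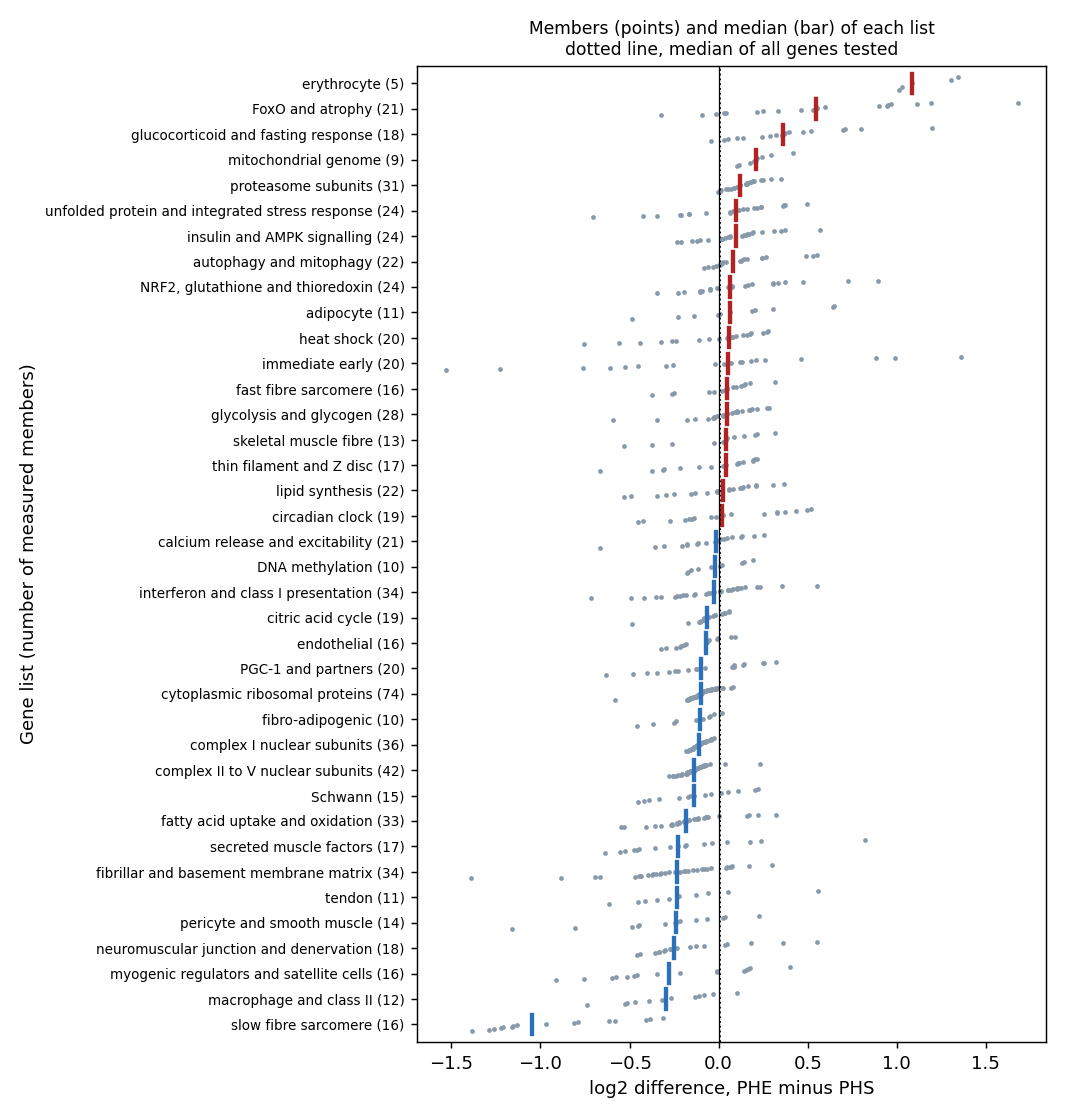
Points are the log2 differences, PHE minus PHS, of the measured members of each gene list drawn. Bars are the list medians, and the dotted line is the median of all genes tested, 0.01. The hepatocyte list and the neutrophil and mast cell list are not drawn. The slow fibre list (-1.05) and the erythrocyte list (1.09) lie farthest out, and none of the members passed the test over all genes.

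The first part of the title code, whose meaning is not stated, differed between the libraries, being F1, F2 and F6 in PHE and F2, F2 and F4 in PHS. With it as a covariate, limma called 11 genes, 8 higher and 3 lower, in a fit that within a code sets PHE replicate 2 alone against PHS replicates 1 and 2. Trim63 was among them (log2 difference 1.88, limma adjusted p = 0.0197), as were Arrdc3 (2.22, 0.0281), Eif4ebp1, the translation inhibitor 4E-BP1 (1.33, 0.0281), and Itgb6, an integrin chain (-2.69, 0.0197). In Itgb6 the counts were 187, 47.1 and 102 in PHE, against 288, 334 and 135 in PHS. The other 7 were D230025D16Rik, Doc2b, Spsb1, 2410006H16Rik, Tmbim1, Lrrc38 and Sec14l5.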

How the data were processed

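Gene expression was measured in 15 quadriceps libraries, of which PHE and PHS, 3 each by the group label, are compared. The submitters' processing notes name featureCounts 1.5.2, STAR 2.5.2b, DESeq2 1.11.8 and the build mm10, with no role for each. The unit of the deposited values is a signal: read counts of each gene that the authors scaled by 1 factor per library, as the values themselves show. Within a column the values were whole multiples of the smallest (100% within 0.001 of a read), which gave back the reads. Totals were 18457663 to 26981745 reads per library, and their number limits the precision of low genes. Of 50686 genes 50462 (99.6%) matched GENCODE M21 (GRCm38), the source of coordinates.

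Log2 values of the normalized count with a pseudocount of 1 were tested in R 4.3.3 by limma 3.58.1 (eBayes with trend), in 1 fit of the 5 groups and 15 libraries. The 13499 genes averaging 10 or more entered the fit, and the other 37187 were left out. A gene was called at a Benjamini-Hochberg adjusted p of 0.05 over all genes tested. Alternatives were edgeR 4.0.16, DESeq2 1.42.0 and limma voom on the recovered reads, other pseudocounts, filters and scalings, a fit of the 6 libraries, the title code as a covariate, and fits without single libraries or the 4 libraries with liver transcripts. The fits of the 5 groups by limma, edgeR, DESeq2 and limma voom were tested on simulated data. The other alternatives were not. Replicate numbers follow accession order and pair nothing.

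As no gene was called, the text names the 12 genes with the smallest p in each direction among those with a group mean of at least 50 and no overlap of values, in each list the 2 most abundant members and the 2 with the smallest p, as far as they are described, and Ppargc1a, Slc2a4, Cs, Pdk4, Myh7, Myh4, Ucp3, Dnmt3b, Trim63, Fbxo32 and Irs1. Ddit4, Foxo3, Cdkn1a, Glul, Dnajb9, Fst, Igf2, Myod1, Alas2 and the genes called under an alternative were picked with their values known. The comparison, the 40 gene lists and the rules were chosen with earlier results of these data known, so lists are described by counts and medians beside those of all genes, with no test of their own. The lymphocyte list had no measured member. The values of some list genes are left out of the text. Promoter windows are RefSeq's (GRCm38.p6).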

Additional observations from a re-analysis of the deposited data

How the results depend on the processing

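The number of genes called was 0 as deposited, 1 with DESeq2, 11 with the title code as a covariate and 0 to 1 with a replicate left out (1 without PHS replicate 3). The number of genes at an unadjusted p under 0.05 and higher in PHE was 248 as reported, 451 with no filter on low values, 773 with the title code, 128 with upper-quartile scaling, 454 when the 4 libraries with liver transcripts were dropped and 78 to 698 with a replicate left out, the lowest without PHE replicate 2 and the highest without PHS replicate 3. It was 123 without PHS replicate 2. Lower in PHE were 260 as reported, 169 with a mean of at least 50, 611 with no filter, 456 with upper-quartile scaling and 160 to 358 with a replicate left out, the lowest without PHS replicate 2. The count of called differences between the arms was 0 as reported and 1 with the title code. The cause of these shifts was not tested, except that the filters change the number of genes. Over 35 named genes and 18 settings, 611 of 628 values kept direction and side of the threshold. Another 4 passed it (Arrdc3 in 3 settings, Trim63 in 1) and 13 changed sign, in Ucp3, Cs, Dnmt3b and Slc2a4. The 12 higher and 12 lower genes were chosen for groups that do not overlap, so leaving out a library could not turn their sign. These counts are therefore no measure of how stable those genes are. Of 40 list medians 18 changed sign under at least 1 of the 18 alternatives. Ucp3 stood at 0.0122 with DESeq2, 0.0165 without the 4 liver-containing libraries and -0.17 to 0.10 with a replicate left out. Cs stood at 0.0326 with the title code and at -0.061 to 0.0189 with a replicate left out. Dnmt3b stood at 0.0129 without those 4 libraries and at -0.51 to 0.15 with a replicate left out, and Slc2a4 at -0.0254 to 0.20. No paired analysis was possible because the replicate numbers only follow the accessions and mark no pairs. With 3 libraries a group and a median SE of 0.21, differences of the median size, 0.15, were not detectable.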
